A study of Mus musculus with 24 samples.

Results

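Wild-type (WT) cerebellum (CB) was compared with WT hippocampus (HC) at postnatal day 35 (P35) in 6 of the 24 mRNA-seq libraries of a study of the 16GsoT/T mouse, a line that carries a chromosome translocation near *Auts2*. The members were taken by label alone, as the 3 WT CB libraries (M27, M28 and M29) and the 3 WT HC libraries (N10, W481 and W483) of that age, and all 25793 genes of the count table were read. No expression value was used to choose them, although earlier results of these data were known. The mice carried neither the translocation nor any treatment, were males by the study's text, although the titles of W481 and W483 carry no sex, and were named in the library titles as B6C3, the C57BL/6 and C3H/He hybrid background on which the mutants were kept, although the strain label reads C57BL/6. Each library title carries an identifier of its own, and CB and HC share none. No label says more on separate mice. Whole dissected tissue was used, so that fewer cells of a type and less RNA per cell cannot be told apart in any value given here. CB and HC libraries also fell into different sets by the form of their titles. M27 to M29 shared a form, W481 and W483 shared another, and N10 had that of the mutant HC libraries. Region and library set therefore cannot be told apart.

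The cerebellar cortex is built from very large numbers of small glutamatergic granule neurons, whose parallel fibres contact the GABAergic Purkinje cells, the only output of that cortex, with Bergmann glia and several interneuron classes around them. The hippocampus is built from glutamatergic pyramidal neurons of the CA fields and granule neurons of the dentate gyrus, controlled by many kinds of GABAergic interneuron. The cerebellum derives from the anterior hindbrain and the hippocampus from the telencephalon, so the transcription factors that pattern these territories in the embryo differ, and some stay on in mature neurons.

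The deposited reads on genes numbered 3670821 to 3970847 per HC library and 5140843 to 7974640 per CB library. Of all reads in the table, 40.0% ± 0.848 (SD, n = 3) lay on genes in HC and 37.7% ± 0.0648 (SD, n = 3) in CB, a difference of -2.35 percentage points with no overlap between the groups (exact two-sided permutation test, p = 0.10, the smallest that 3 against 3 libraries allow). Pearson's r of log2(CPM + 1) across genes, which are not independent replicates, was 0.995 to 0.996 within CB, 0.989 to 0.992 within HC and 0.948 to 0.95 between the regions. CPM here are read counts scaled to the size of the library's gene counts after TMM scaling. The 4 Y-linked genes examined were present in all 6 libraries, and *Xist* did not exceed 1.73 CPM.

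Markers of neighbouring tissue differed between libraries of the same region, and touch single results given further on. The HC library N10 held more of the thalamic and habenular list than the other HC libraries, with a summed level over 12 genes of 406 CPM against 163 in W481 and 134 in W483. The choroid plexus list (13 genes) summed to 23.5 CPM in the CB library M27 against 1255 in M28 and 2149 in M29, and to 92.0 to 108 CPM in HC. The meningeal list (8 genes) summed to 226 CPM in W483 against 121 in N10 and 117 in W481. The part of these differences in any other result was not tested. Brainstem markers were at or near 0 throughout, with sums over 9 genes of 0.927 to 4.61 CPM.

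**Figure D1:**
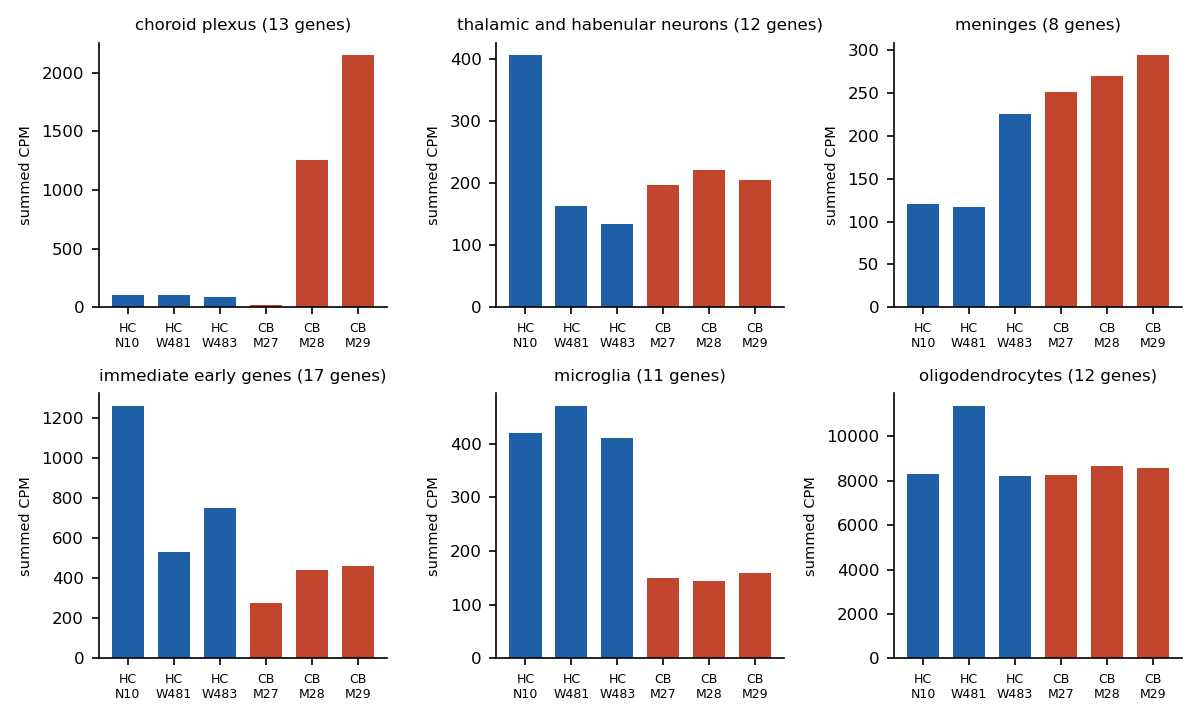
Summed CPM of 6 gene lists in each of the 6 WT P35 libraries (bars, 1 library each, HC blue and CB red). The choroid plexus genes reached 1255 and 2149 CPM in CB libraries M28 and M29 but 23.5 CPM in M27, thalamic genes were highest in HC library N10 at 406 CPM, and microglial genes were lower in every CB library than in any HC library.

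The regions differed widely. Of 13886 genes with enough counts to test, 5056 (36.4%) were differentially expressed genes (DEGs), defined by an adjusted p of at most 0.05 in edgeR's quasi-likelihood test and a fold change of at least 1.5. Of them 2453 (17.7% of genes tested) were higher in CB and 2603 (18.7%) in HC. At the level of 4-fold or more, 487 genes (3.51%) were higher in CB and 693 (4.99%) in HC. In 62.4% of genes tested the 3 CB values and the 3 HC values did not overlap, so a lack of overlap is common here and says little of a single gene. The median log2 difference over all genes tested was 0.01. Without TMM scaling, by library totals alone, that median rose by 0.14 and the split became 3147 higher in CB and 2152 in HC.

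**Figure D2:**
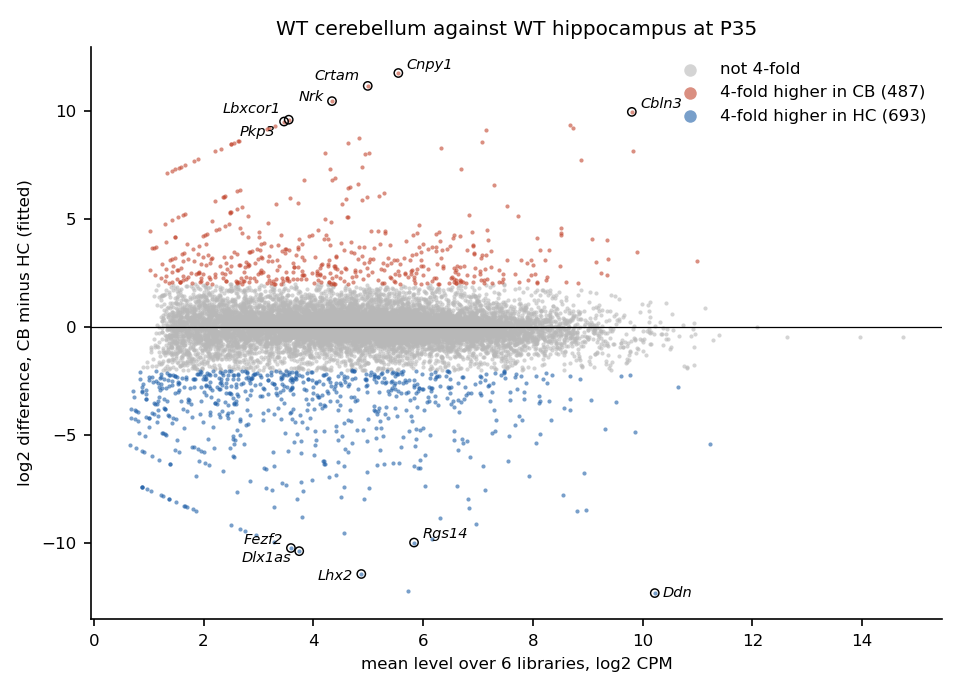
Fitted log2 difference (CB minus HC) against mean level (log2 CPM) for the 13886 genes tested, each point 1 gene. Red points are the 487 genes at least 4-fold higher in CB and blue points the 693 at least 4-fold higher in HC, the circled genes are the extremes described in the text, and the slanting rows of points near the edges are genes with no or few reads in 1 region, whose fitted difference depends on the prior count.

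The genes furthest apart among well-expressed genes were present in the libraries of 1 region and nearly absent in the other. *Cnpy1*, which encodes a modulator of FGF signalling of the midbrain-hindbrain boundary, was at 88.3, 86.2 and 78.7 CPM in CB (M27, M28, M29) and had no read in HC, at least 308-fold higher in CB. *Crtam*, an immunoglobulin-family receptor known from T cells, was at 54.6, 57.1 and 55.8 CPM in CB with no read in HC, at least 203-fold higher. *Nrk*, a kinase gene, was at least 125-fold higher, *Lbxcor1* (now *Skor1*), a transcriptional corepressor, at least 69.4-fold, and *Pkp3*, a plakophilin of cell junctions, at least 64.5-fold, again with no read in HC. These bounds set the HC level to 3 counts over its 3 libraries.

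In the other direction, *Ddn*, which encodes dendrin of the postsynaptic density, was at 2207, 2404 and 2598 CPM in HC (N10, W481, W483) and at 0.464, 0.363 and 0.554 CPM in CB, a log2 difference of -12.32 ± 0.17 (SE; edgeR adjusted p = 6.5e-14). *Lhx2*, a LIM homeobox factor of the forebrain, was at 70.3, 60.0 and 69.8 CPM in HC and had no read in CB, at least 448-fold lower. *Fezf2* was at least 195-fold and *Dlx1as* at least 216-fold lower, also with no read in CB. *Dlx1as* runs antisense across *Dlx1* (NCBIM37 chromosome 2, 71354511 to 71375948 against 71366170 to 71372038), and at 36.6, 32.5 and 26.8 CPM it followed *Dlx1* at 40.6, 33.3 and 25.4 CPM. The strand setting of the counting is not given in the sources used here, so reads of this pair cannot be told apart. *Rgs14*, a regulator of G-protein signalling known from CA2 neurons, was at 116, 114 and 143 CPM in HC with 2 reads in all CB libraries, a ratio of 1248 (95% counting interval 345 to 10315).

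Genes of the main cerebellar neurons were higher in CB. All 15 tested granule neuron genes and all 17 Purkinje cell genes were DEGs higher in CB, with median log2 differences of 4.12 and 3.34, against 17.7% of all genes. *Cbln3*, a secreted cerebellin of granule neurons, was at 1854, 1834 and 1629 CPM in CB against 3.72, 0.819 and 0.577 in HC (log2 difference 9.97 ± 0.25 SE, edgeR adjusted p = 6.1e-12). *Gabra6*, the GABA-A subunit that marks mature granule neurons, was at 860, 823 and 838 CPM in CB against 3.98 in N10 and 0 in W481 and W483. *Fat2*, a giant protocadherin of granule neurons, and *Cbln1*, the cerebellin that links parallel fibres to Purkinje cells, lay at 804 ± 30.4 and 924 ± 88.1 CPM in CB (SD, n = 3) against 1.17 ± 1.55 and 4.25 ± 2.47 in HC. In each of these 4 genes the highest HC value was that of N10, and without N10 each remained a DEG higher in CB.

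Among Purkinje cell genes, *Ppp1r17* (listed as *Gsbs*), a substrate of cGMP-dependent kinase, was at 273, 257 and 238 CPM in CB against 0.531, 0.546 and 0.865 in HC (log2 difference 8.59 ± 0.18 SE, edgeR adjusted p = 1.4e-12). *Car8*, a carbonic anhydrase relative that binds the IP3 receptor, reached 1915, 1705 and 1761 CPM against 9.82, 4.91 and 4.04. *Pcp2*, a classical Purkinje cell marker, was at 299 ± 10.8 CPM in CB and 3.12 ± 0.821 in HC (SD, n = 3). *Calb1*, which encodes calbindin, is shared with hippocampal neurons and was 8.83-fold higher in CB, at 1173 ± 64.0 against 133 ± 8.37 CPM. The smallest log2 difference of the list was that of *Foxp2*, at 1.28 ± 0.48 (SE; edgeR adjusted p = 0.038). It was at 11.4 CPM in N10, 2.18 in W481 and 0.865 in W483, against 11.6, 12.6 and 11.8 in CB. The number of Purkinje cell genes higher in CB lay between 16 and 17 in the 13 other settings. Of Bergmann glia genes 7 of 8 were higher in CB, against 17.7% of all genes, led by *Gdf10* at 14.2-fold. *Gria1*, which hippocampal neurons also use, was higher in HC (log2 difference -0.62 ± 0.09 SE). That HC call was lost in 6 of the 13 other settings.

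The interneurons of the cerebellar cortex gave a mixed list. Of 10 genes 7 were higher in CB and 3 in HC, beside 17.7% and 18.7% of all genes. *Tfap2b* (listed as *Tcfap2b*), a GABAergic lineage factor, was at 55.8, 61.1 and 51.9 CPM in CB against 2 reads over HC, a ratio of 310 (95% counting interval 85.7 to 2565). *Slc6a5*, the glycine transporter of glycinergic neurons, was at 8.97 ± 2.53 CPM in CB (SD, n = 3) against 2 reads over HC. The 3 genes higher in HC were *Htr2a*, *Grm2* and *Sorcs3*, which neurons outside the cerebellum also express, and the call of *Sorcs3* was lost without N10 at a log2 difference of -0.58. *Grm2*, a Golgi cell marker of the cerebellum, was at 54.4, 57.0 and 75.3 CPM in HC and at 13.8, 19.7 and 15.9 CPM in CB.

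Genes of CA pyramidal neurons were DEGs higher in HC in 16 of 16 cases, with a median log2 difference of -4.32, against 18.7% of all genes. *Camk2a*, the calcium/calmodulin-dependent kinase of forebrain excitatory synapses, was at 4228, 4607 and 5243 CPM in HC against 126, 94.8 and 105 in CB, 43.2-fold by the means. *Nrgn*, the calmodulin-binding protein neurogranin, was at 1065, 908 and 1050 CPM in HC against 3.09, 2.42 and 3.14 in CB (log2 difference -8.46 ± 0.14 SE, edgeR adjusted p = 4.4e-13). *Fibcd1*, which marks CA1, was at 168, 154 and 140 CPM in HC with 3 reads over CB, a ratio of 1038 (95% counting interval 354 to 5037). *Wfs1*, another CA1 marker, also has cerebellar expression here, at 41.6 ± 6.36 CPM in CB against 131 ± 2.70 in HC (SD, n = 3).

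Dentate granule neuron genes split. Of 12 genes 8 were higher in HC, 2 were higher in CB and 2 were not called, beside 18.7% of all genes higher in HC and 17.7% in CB. *Prox1*, the transcription factor of dentate granule neurons, was at 46.4, 73.1 and 89.7 CPM in HC against 24.9, 28.2 and 29.7 in CB. *Dsp*, which encodes desmoplakin, was at 38.5, 79.4 and 122 CPM in HC against 0.155, 1.21 and 1.48 in CB, and *Lct*, the lactase gene, at 31.0, 52.4 and 74.7 against 0.464, 0.121 and 0. The HC values of these 3 genes were lowest in N10 and highest in W483, but the list was not uniform in this. *C1ql3* rose by less, at 176, 196 and 216 CPM in N10, W481 and W483. *C1ql2* was not lowest in N10, at 43.8, 42.3 and 64.6 CPM. The CA gene *Camk2a* was also lowest in N10 and highest in W483, so the order of libraries is not particular to dentate genes. The pair higher in CB was *Plk5* (16.5 ± 5.51 CPM in HC, 59.3 ± 6.04 in CB) and *Il16* (52.0 ± 10.1 in HC, 216 ± 6.38 in CB; SD, n = 3), both named after their values were seen.

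Hippocampal interneuron genes were higher in HC in 7 of 9 tested, against 18.7% of all genes. *Sst*, somatostatin, was at 131, 140 and 98.0 CPM in HC against 0.464, 1.93 and 1.66 in CB, and *Npy*, neuropeptide Y, at 35.8 ± 4.06 against 6.93 ± 1.25 (SD, n = 3). *Vip* had 1 read in all of CB against 14.8 ± 5.47 CPM in HC. *Cnr1*, the cannabinoid receptor that hippocampal CCK cells and cerebellar granule neurons both express, was higher in CB, at 545 ± 37.3 against 229 ± 9.07 CPM.

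The gene with the largest fold of each leading list can be set beside its promoter. The RefSeq promoter table (GRCm38.p6) holds *Cbln3*, *Fibcd1* and *Lct*, of granule, CA and dentate neurons, and the 250 bases before the start of each are printed in gene direction because they differ greatly in CG dinucleotides, which are in capitals.
Cbln3 (chr14:55884257-55884506, minus strand): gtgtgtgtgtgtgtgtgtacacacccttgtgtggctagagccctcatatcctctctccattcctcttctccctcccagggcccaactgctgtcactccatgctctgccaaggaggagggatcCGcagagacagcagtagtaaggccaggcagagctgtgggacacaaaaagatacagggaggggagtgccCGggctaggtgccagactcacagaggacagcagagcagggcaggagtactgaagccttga
Fibcd1 (chr2:31846006-31846255, minus strand): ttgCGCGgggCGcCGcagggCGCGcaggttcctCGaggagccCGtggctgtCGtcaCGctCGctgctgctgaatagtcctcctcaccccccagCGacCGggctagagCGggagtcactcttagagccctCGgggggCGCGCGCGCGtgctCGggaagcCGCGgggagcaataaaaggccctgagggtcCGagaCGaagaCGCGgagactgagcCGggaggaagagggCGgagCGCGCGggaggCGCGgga
Lct (chr1:128328319-128328568, minus strand): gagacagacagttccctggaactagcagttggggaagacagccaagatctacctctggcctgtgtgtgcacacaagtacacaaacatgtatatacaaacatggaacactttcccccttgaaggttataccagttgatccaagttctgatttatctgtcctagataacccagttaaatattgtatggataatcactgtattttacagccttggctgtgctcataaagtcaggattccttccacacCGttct

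*Cbln3* holds 2 CG dinucleotides, *Lct* 1 and *Fibcd1* 34, against a median of 6 and quartiles of 2 and 16 over 32851 promoters of this length. The E-box of the NEUROD type (CAGATG) occurs on either strand in 14.4% of all promoters, the ROR element (AGGTCA) in 14.0%, the TATA box (TATAAA) in 12.4% and the cAMP response element (TGACGTCA) in 1.55%, and none of them occurs in the 3 windows. *Ppp1r17* leads the Purkinje cell list.

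Patterning factors kept the split of the embryonic territories. Of 17 tested midbrain and hindbrain factors, 15 were higher in CB, against 17.7% of all genes. The list median log2 difference was 5.32 (5.08 with genes that have no read in 1 region at their bound). *En2*, an engrailed homeobox factor of the midbrain-hindbrain boundary, was at 192, 197 and 197 CPM in CB against 0.796, 1.09 and 1.73 in HC. *En1*, at 3.83 ± 0.496 CPM (SD, n = 3), and *Pax3*, at 8.65 ± 1.87, had no read in HC and were at least 13.7-fold and 30.5-fold higher. *Lhx9* and *Meis2* went the other way, at 14.2 ± 1.36 against 0.499 ± 0.306 CPM and at 38.2 ± 11.6 against 3.25 ± 1.38 CPM (HC first). Of 21 tested forebrain factors 18 were higher in HC and none in CB, against 18.7% and 17.7% of all genes, with a median of -6.87 (-6.28 with bounds). Besides *Lhx2* and *Fezf2*, *Emx2*, *Nr2e1*, *Dlx2* and *Dlx5* had no read in CB. The 3 that were not called were *Neurod2*, *Nr2f1* and *Nr2f2*. *Neurod2*, a factor of excitatory neurons in both regions, was at 159, 135 and 198 CPM in HC and at 148, 149 and 137 in CB.

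The subunits of the GABA-A receptor, the chloride channel of fast inhibition, divided between the regions. Of 13 tested subunits 4 were higher in CB, 7 were higher in HC and 2 were not called, beside 17.7% and 18.7% of all genes higher in CB and HC. *Gabra6*, *Gabrd* and *Gabrb2* were among those higher in CB. Those higher in HC included *Gabra5*, *Gabrg3*, *Gabra3*, *Gabra2*, *Gabra4* and *Gabrb1*, and *Gabrg1* was among those not called. *Gabra5*, the subunit of extrasynaptic receptors of pyramidal neurons, was at 189, 249 and 273 CPM in HC against 0.927, 0.967 and 0.924 in CB (log2 difference -7.94 ± 0.21 SE, edgeR adjusted p = 7.8e-12). *Gabrd*, which joins alpha 6 in extrasynaptic receptors of granule neurons, was at 28.7, 21.8 and 26.2 CPM in HC and 185, 179 and 175 in CB.

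Neighbouring subunit genes can be read together. On NCBIM37 chromosome 5, *Gabrg1* (71142286 to 71233856), *Gabra2* (71352296 to 71487088), *Gabra4* (71960973 to 72049547) and *Gabrb1* (72091171 to 72529628) form a cluster, in which 3 of 4 were higher in HC and none in CB. On chromosome 7, *Gabrg3* (63971835 to 64642558) and *Gabra5* (64663060 to 64765379) were both higher in HC. On chromosome 11, *Gabra6* (42119939 to 42134574) and *Gabrb2* (42233259 to 42446092) were both higher in CB. *Gabra3* on the X chromosome was higher in HC and *Gabrd* on chromosome 4 in CB. This grouping was noticed after the values were seen and is a description of the genes named.

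Levels of subunits were compared with each other only after division by exon length (GENCODE vM1). The annotation used for the counting is not given, so these lengths may differ from the exons counted. That limit holds for all levels and shares per exon length given here, and their SDs cover the spread between libraries only. On that scale *Gabra6* was at 338 ± 7.40 CPM per kilobase in CB (SD, n = 3), while *Gabra5* was at 89.3 ± 16.3 in HC, *Gabra2* at 38.6 ± 10.95, *Gabra4* at 33.2 ± 1.48 and *Gabra3* at 14.7 ± 5.86. The order of *Gabra2* and *Gabra4* in HC does not go beyond their spread.

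**Figure D3:**
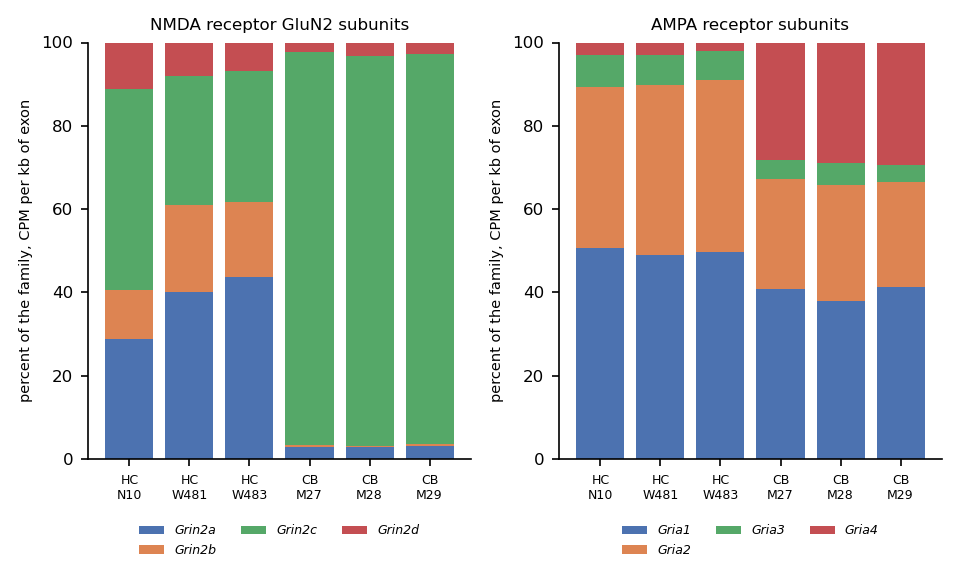
Make-up of 2 receptor families in each WT P35 library, as the percent of the family's summed CPM per kilobase of exon (stacked bars, 1 library each, HC left and CB right). *Grin2c* filled 93.9% of the GluN2 subunits in CB, and *Gria4* 28.9% of the AMPA subunits against 2.71% in HC.

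Of 18 ionotropic glutamate receptor subunits, 6 were higher in CB, 9 in HC and 3 were not called, beside 17.7% and 18.7% of all genes. Among the GluN2 subunits, which set the kinetics of NMDA receptors, *Grin2b* was at 29.5, 63.0 and 46.4 CPM in HC against 2.78, 3.51 and 3.14 in CB (log2 difference -3.86 ± 0.28 SE, edgeR adjusted p = 9.2e-08). *Grin2a* was at 46.7, 78.3 and 72.4 CPM against 14.7, 14.4 and 14.6. *Grin2c*, the subunit of mature granule neurons, was at 74.6, 57.8 and 49.3 CPM in HC against 457, 465 and 408 in CB. Per exon length *Grin2c* took 93.9% ± 0.524 of the GluN2 sum in CB (SD, n = 3), while in HC *Grin2a* (37.5% ± 7.74), *Grin2c* (36.9% ± 9.91) and *Grin2b* (16.9% ± 4.67) shared it, with *Grin2a* and *Grin2c* not separated beyond their spread. In N10 *Grin2c* was at 48.3% against 31.1% in W481 and 31.3% in W483.

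Of the AMPA receptor genes, *Gria1*, *Gria2* and *Gria3* were lower in CB by log2 differences of -0.62, -0.92 and -0.98. *Gria4* was at 62.6, 66.6 and 52.8 CPM in HC against 533, 507 and 541 in CB (log2 difference 3.12 ± 0.10 SE, edgeR adjusted p = 2.9e-11). *Grid1*, a delta receptor, was lower in CB, at 62.4, 58.1 and 60.0 CPM in HC against 25.5, 20.1 and 23.1 in CB. *Grin3a* and *Grin2d* were not called, with log2 differences of -0.08 ± 0.17 and -0.15 ± 0.20 (SE).

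**Figure D4:**
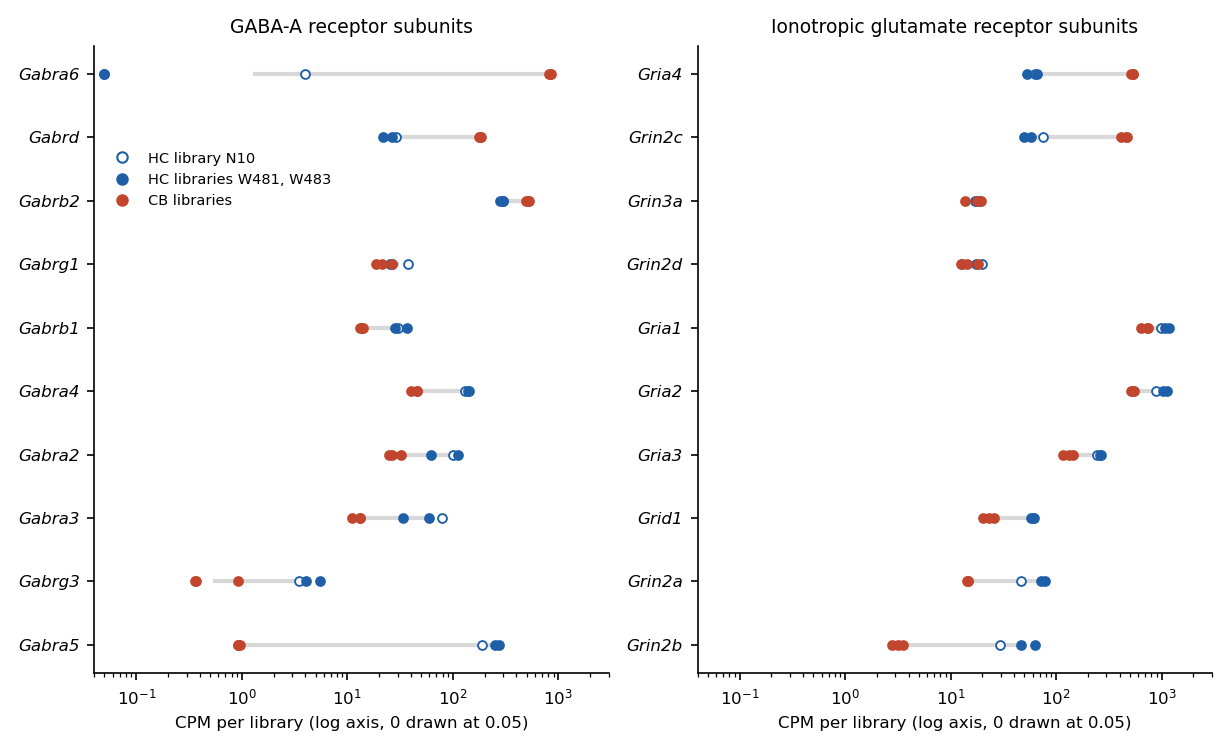
CPM of the GABA-A and ionotropic glutamate receptor genes named in the text in each WT P35 library (points on a log axis, HC blue with N10 open, CB red, grey line between group means). *Gabra6* and *Gabra5* lie at opposite ends, the first at 823 to 860 CPM in CB and the second at 189 to 273 CPM in HC.

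Of 7 tested metabotropic receptors 2 were higher in CB and 4 in HC, beside 17.7% and 18.7% of all genes. *Grm5*, which couples to IP3 and calcium release, was at 310, 306 and 304 CPM in HC against 11.6, 8.83 and 10.5 in CB, 29.7-fold by the means (log2 difference -4.90 ± 0.10 SE, edgeR adjusted p = 1.7e-12). *Grm4*, the presynaptic receptor of parallel fibres, was higher in CB, at 400 ± 21.9 against 11.1 ± 6.75 CPM (SD, n = 3). *Grm2*, *Grm3* and *Grm7* were higher in HC, and *Grm8* was not called.

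Of 33 tested genes of calcium release and signalling 16 were higher in CB and 11 in HC, beside 17.7% and 18.7% of all genes. *Itpr1*, the IP3 receptor of Purkinje cells, was at 472, 427 and 399 CPM in HC against 3681, 3637 and 3649 in CB, and *Plcb4*, its upstream phospholipase in many Purkinje cells, was higher in CB by a log2 difference of 3.34 ± 0.21 (SE). *Plcb1* was lower in CB, at 256 ± 4.37 CPM in HC and 67.7 ± 5.58 in CB (SD, n = 3). *Atp2a3*, a calcium pump of the endoplasmic reticulum, was at 7.21 ± 2.25 CPM in HC and 352 ± 17.9 in CB. *Pvalb*, parvalbumin, was 20.5-fold higher in CB, and *Hpca*, the calcium sensor hippocalcin, was 29.1-fold higher in HC, at 1821 ± 232 against 62.5 ± 11.8 CPM.

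Voltage-gated calcium channel genes were higher in CB in 8 of 21 cases and higher in HC in 8, beside 17.7% and 18.7% of all genes. *Cacna1a*, the P/Q-type channel of Purkinje cells, was at 135, 132 and 166 CPM in HC against 461, 507 and 479 in CB. Of the T-type genes, *Cacna1g* was higher in CB (119, 55.9 and 58.5 against 401, 438 and 396 CPM) and *Cacna1h* in HC (145 ± 21.6 against 4.46 ± 0.834 CPM, SD, n = 3). *Cacna1i* and *Cacna1e* were not called. Among the auxiliary subunits *Cacnb4*, *Cacna2d2* and *Cacng2* were higher in CB and *Cacnb1*, *Cacnb3*, *Cacng3* and *Cacng8* in HC.

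Transporters for transmitters were 8 higher in CB, 6 higher in HC and 3 not called, beside 17.7% of all genes higher in CB and 18.7% in HC. *Slc1a6*, the Purkinje cell glutamate transporter, was at 8.23 to 10.96 CPM in HC against 172, 194 and 181 in CB. *Slc1a2*, the main astrocyte transporter of the forebrain, was at 2856, 3528 and 2714 CPM in HC against 973, 875 and 843 in CB, whereas *Slc1a3*, the transporter of Bergmann glia, was at 759, 739 and 659 against 1511, 1446 and 1443. *Slc17a7*, the vesicular glutamate transporter VGLUT1 of both granule and pyramidal neurons, was higher in HC by a log2 difference of -1.27 ± 0.09 (SE). *Slc17a8* (VGLUT3) had 2 reads over CB against 9.73 ± 2.26 CPM in HC, a ratio of 98.0 (95% counting interval 26.5 to 820). *Slc17a6* (VGLUT2) was not called, at 47.0 CPM in N10 against 19.9 in W481, 10.4 in W483 and 17.9 to 19.9 in CB.

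Cerebellins and their relatives are secreted proteins, some of which bridge neurexins and delta receptors. *Cbln1* and *Cbln3* were higher in CB, as given above, while *Cbln4* and *C1ql2* were higher in HC, at 10.1 ± 2.62 against 0.816 ± 0.228 and 50.2 ± 12.5 against 0.676 ± 0.288 CPM (SD, n = 3). *C1ql3* was also higher in HC (log2 difference -2.77 ± 0.11 SE). *Cbln2* was at 12.5, 8.46 and 2.88 CPM in HC with 3 reads over CB. In all 4 of 16 genes were higher in CB and 8 in HC, beside 17.7% and 18.7% of all genes. Of the partners, *Nrxn3*, *Nlgn2* and *Bai3* were not called.

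Receptors for neuromodulators were mostly a hippocampal set. Of 35 tested, 26 were higher in HC, against 18.7% of all genes, 3 were higher in CB and 6 were not called, and the list median was -2.63. *Chrm1*, the M1 muscarinic receptor, was at 252, 257 and 275 CPM in HC against 0.155, 0.605 and 0.554 in CB (log2 difference -9.12 ± 0.17 SE, edgeR adjusted p = 1.0e-12). *Npy2r*, a neuropeptide Y receptor, was at 68.3 ± 5.34 against 0.288 ± 0.278 CPM, and *Htr1a*, a serotonin receptor, at 42.0 ± 8.56 against 0.531 ± 0.556 (SD, n = 3). The 3 genes higher in CB were *Cnr1*, *Chrnb2* and *Htr1b*, and the largest of these log2 differences was 1.25. *Htr2c*, which choroid plexus cells also express, was at 4.33 CPM in M27 against 16.6 in M28 and 21.2 in M29.

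Nuclear receptors and neurotrophins gave shorter lists. *Rora*, the retinoid-related orphan receptor needed for Purkinje cells, was at 5.04, 3.55 and 4.90 CPM in HC against 57.7, 56.7 and 57.4 in CB, and *Esrrg* was also higher in CB. *Nr3c2*, the mineralocorticoid receptor, was at 111, 151 and 163 CPM in HC against 17.9, 15.6 and 13.1 in CB. The glucocorticoid receptor *Nr3c1* was not called, with a log2 difference of 0.44 ± 0.08 (SE). *Bdnf* was at 43.0, 42.0 and 53.9 CPM in HC against 16.7, 10.9 and 16.1 in CB, while *Ntf3* differed by 0.06 ± 0.22 (SE) and was not called. In sum 3 nuclear receptors of 15 were higher in CB, a share near the 17.7% of all genes, and 8 in HC, beside 18.7%. Of 7 neurotrophins and receptors 3 were higher in HC and none in CB, or 1 without N10.

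Genes used by neurons in general were not level between the regions. Of 16 pan-neuronal genes 9 were higher in HC and 2 in CB, with a median log2 difference of -0.64, beside 18.7% and 17.7% of all genes. The HC count lay between 6 and 9 in the 13 other settings. The CB count was 1 without W481 or without M29, and 0 with N10 as the only HC library. *Uchl1*, a ubiquitin hydrolase of neurons, was at 610, 482 and 500 CPM in HC against 80.2, 97.2 and 89.0 in CB, and *Mapt*, tau, differed by 0.11 ± 0.08 (SE).

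Glia differed by type. All 11 microglial genes were DEGs higher in HC, against 18.7% of all genes, with log2 differences from -1.99 to -1.01. Their summed level was 412 to 470 CPM in HC against 144 to 159 in CB. *Csf1r*, the receptor on which microglia depend, was at 91.3, 92.0 and 79.3 CPM in HC against 27.8, 28.8 and 28.1 in CB (edgeR adjusted p = 1.5e-08). *Cx3cr1*, the fractalkine receptor, was at 28.7, 59.2 and 41.8 against 12.1, 12.8 and 12.2 CPM. All 5 oligodendrocyte precursor genes were higher in HC too, with *Pdgfra*, the growth factor receptor of these cells, at 62.8 ± 8.84 against 22.8 ± 1.44 CPM (SD, n = 3). Mature oligodendrocytes showed little of this, with *Opalin* alone called of 12 genes. *Mbp*, myelin basic protein, was at 3939, 5122 and 3869 CPM in HC and 4230, 4411 and 4450 in CB.

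Astrocyte genes were 6 higher in CB, 3 higher in HC and 5 not called, beside 17.7% of all genes higher in CB and 18.7% in HC. *S100b*, a calcium-binding protein, was at 116, 116 and 91.1 CPM in HC against 518, 455 and 498 in CB, and *Aqp4*, the water channel of astrocyte endfeet, was 2.62-fold higher in CB. Of 12 endothelial and mural genes 10 were not called. With N10 as the only HC library 6 endothelial genes were higher in CB, and without N10 none was.

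Markers of neighbouring tissue need the per-library values. *Ttr*, the transthyretin of choroid plexus, was at 66.3, 54.0 and 55.1 CPM in HC and at 6.18, 1089 and 1924 CPM in CB, so the groups overlap, and the choroid plexus list gave 3 DEGs of 7 tested. That count was 13 without M27, 9 without N10 and 7 without W481 or without W483, and other settings gave up to 10. *Tcf7l2*, a thalamic transcription factor, was at 21.2 CPM in N10 and at 2.73 to 4.79 CPM in the other 5 libraries. With N10 as the only HC library 9 thalamic genes were called higher in HC, and without N10 there were 2 higher in HC and 3 higher in CB. Meningeal genes were 6 of 8 higher in CB, and 3 without W481. Ependymal cells gave 1 DEG each way of 4, striatal neurons 4 higher in HC and 2 in CB of 8, and blood none of 4. Over all genes tested 36.4% were DEGs, with 17.7% higher in CB and 18.7% in HC.

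Immediate early genes, which neurons switch on with activity, were higher in HC in 11 of 16 tested and higher in CB in 2. Over all genes the shares were 18.7% and 17.7%. *Egr3* was at 41.9, 25.1 and 30.3 CPM in HC against 0.155, 0 and 0.554 in CB. *Arc* was at 304, 103 and 200 CPM in HC against 19.6 to 20.6 in CB. *Dusp1*, a phosphatase, was at 31.8, 11.7 and 15.6 CPM in HC against 36.9, 85.5 and 99.0 in CB, and *Fos* was not called, at 49.4, 3.27 and 16.1 CPM in HC against 14.4, 40.7 and 50.2 in CB. The list was highest in N10 among HC libraries and lowest in M27 among CB libraries, and no time of day or handling was given in the labels. Of 13 circadian clock genes 3 were higher in CB, led by *Cry1* at 3.17-fold, and 2 in HC, led by *Npas2* at 6.09-fold, a share near the 36.4% of all genes called. The HC count was 1 without W483, without M27 or without M28.

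The genes at the translocation breakpoints were read in these WT libraries as a baseline. *Galnt17* (listed as *Wbscr17*), a glycosyltransferase gene on NCBIM37 chromosome 5 from 131347952 to 131783948, was at 169, 187 and 219 CPM in HC against 59.7, 59.0 and 58.6 in CB (log2 difference -1.70 ± 0.10 SE, edgeR adjusted p = 1.0e-08). Its neighbour *Caln1* (130845346 to 131316515), a calcium-binding protein gene, went the other way, at 39.5, 66.6 and 52.5 against 143, 143 and 147 CPM. *Auts2* (131913205 to 133019214), the regulator of transcription and the cytoskeleton on the other side of *Galnt17*, did not pass the test, at 89.7, 61.9 and 80.4 CPM in HC and 70.0, 67.1 and 64.5 in CB (log2 difference -0.20 ± 0.12 SE, edgeR adjusted p = 0.17). *Sox1*, a neural transcription factor, was 1.68-fold higher in CB, at 25.6 ± 3.87 against 15.2 ± 2.42 CPM (SD, n = 3).

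The same regions at P14 share no library with P35. Of 5044 DEGs that could be fitted at P14, 4463 (88.5%) had the same direction there, as had 96.2% of the genes that differed 4-fold. Over 15573 genes and 12 WT libraries, the CB to HC difference was called as changed with age in 2840 (18.2%; adjusted p of at most 0.05 and at least 1 on the log2 scale), 1634 (10.5%) with a higher CB to HC difference at P35 and 1206 (7.74%) with a lower one. The 3 P14 CB libraries stand apart from the other 9 in a way that bears on this test, with 65.8% to 66.0% of reads on genes against 37.6% to 41.4%. Moreover 188 genes, 122 of them with LOC symbols, were under 0.3 CPM in each of them and above 2 CPM in each of the other 9, and no gene showed the reverse for P14 HC. All 188 were called, and all 4 genes with the largest rise were among them. Age, region and this difference between libraries cannot be told apart.

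With that limit, the age comparison by list was uneven. In the oligodendrocyte list 9 of 12 genes were called, all with a lower CB to HC difference at P35, against 7.74% of all genes. The list of *Xist* and Y-linked genes did the same in these male libraries, with 4 of 5 called, all lower at P35. Its median log2 difference, over the 4 genes tested at P35, was 1.45 at P14 and 0.04 at P35. What these 2 lists share was not tested. The call of *Mbp* was lost without the P14 HC library N5 and without W481. It was at 2764, 1560 and 2323 CPM in HC and at 5086, 5113 and 4340 in CB at P14, and was not called at P35. No microglial or Bergmann glia gene was called. *Grm5* was at 192, 207 and 175 CPM in HC and 69.8, 77.5 and 64.6 in CB at P14, so that its log2 difference of -1.44 at P14 was -4.90 at P35. *Grin2b* and *Grin2a* showed log2 differences of -0.43 and 0.01 at P14 against -3.86 and -2.17 at P35, and *Plcb1* of -0.11 against -1.92.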

How the data were processed

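The authors deposited raw read counts per gene for each library, made per the submitters' processing notes with CASAVA 1.8.2, TopHat2 2.0.8 and HTSeq 0.6.1 on build NCBIM37. The labels name a TruSeq stranded kit and the study's methods a KAPA stranded kit. The annotation and strand option of the counting are not given in the sources used here. The 5 summary lines that name no gene were left out of library sizes. Counts of the 6 WT P35 libraries were tested with edgeR 4.0.16 (quasi-likelihood, TMM, filterByExpr with a minimum count of 10 and total of 15) in R 4.3.3, with Benjamini-Hochberg adjustment over all genes tested. The region by age test used 12 WT libraries. DESeq2 1.42.0, other scalings, no filter on low counts, all 12 P35 libraries in the fit and leaving out each library were the alternatives. P-values of these fits set a difference between groups against the spread between these libraries, in which region and library set coincide. Genes with no read in 1 region are given as a bound at 3 counts over the group, and those with 1 to 3 reads as a ratio with a 95% interval, both for counting error only.

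Genes were named as the 6 furthest apart on each side (mean of at least 2 log2 CPM, groups not overlapping), up to 5 DEGs and the least different gene of each list, any member of receptor, channel and factor families, the first genes of each cell type list, the breakpoint genes and the 4 largest age changes each way. *Plk5*, *Il16*, *Csf1r*, *Dusp1*, *Ermn* and *Ntsr2* lie outside this rule and were named after their values were seen. The members, taken by label, and the 36 gene lists (461 of 463 genes matched) were chosen with earlier results of these data known. The fits were tested on simulated data. Some genes that this rule would name are not reported here.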

Additional observations from a re-analysis of the deposited data

Results flagged for a closer look

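The results that follow were picked out because the CB to HC difference itself differed between P35 and P14 in the test of region by age (edgeR, 12 WT libraries). All of them carry the difference in reads on genes between the 3 P14 CB libraries and the other 9, and its part was not tested. Each value is the log2 difference between CB and HC at P35 minus that at P14.

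The largest rises were 10.21 for *LOC100503555*, 10.07 for *LOC100503016*, 9.67 for *LOC100502995* and 9.58 for *LOC100503475*, each under 0.3 CPM in the 3 P14 CB libraries and above 2 CPM in the other 9. The largest falls were -8.66 for *Myoz3*, -8.05 for *Rn7sk*, -7.81 for *Nhlh1*, a helix-loop-helix factor of young neurons, and -6.45 for *Igfbpl1*. *Rn7sk*, a non-coding RNA, ranged from 4.95 to 51.4 CPM in the P14 CB libraries and from 0 to 30.3 CPM at P35.

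Among synaptic genes the change was -3.46 for *Grm5*, -3.41 for *Grin2b*, -2.17 for *Grin2a* and -1.79 for *Plcb1*. Among myelin genes it was -2.37 for *Ermn* and -1.10 for *Mbp*. *Ntsr2*, a neurotensin receptor of astrocytes, changed by 2.48. It was at 145 ± 8.94 CPM in HC and 19.5 ± 1.61 in CB at P14 and at 115 ± 5.99 in HC and 85.5 ± 8.54 in CB at P35 (SD, n = 3). *Ermn* and *Ntsr2* were named after their values were seen.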

How the results depend on the processing

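No paired analysis was possible because the CB and HC library names share no identifier. The DEG count of 5056 lay between 4886 and 5756 in 13 other settings and rose to 7772 with no fold limit, which by construction admits smaller differences. The 1180 genes at 4-fold lay between 1180 and 1717, the 2840 genes of the region by age test between 2660 and 3075, and the share of reads on genes differed by -1.45 points without multiply placed reads. Leaving out 1 library gave 4886 to 5213 DEGs, 1241 to 1305 genes at 4-fold and 2660 to 3052 genes by age. The alternative with N10 as the only HC library, chosen after seeing the data, gave 5417 DEGs.

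Among 138 of the genes named at P35, 1753 of 1794 values kept direction and call. The log2 differences that turned sign belonged to genes that did not pass the test. By library totals alone they were 0.053 for *Grin3a* and 0.091 for *Cacna1e*, and with all 12 P35 libraries 0.0059 for *Cacna1e*. Leaving out 1 library moved *Grin2d* between -0.32 and 0.011, *Grin3a* between -0.18 and 0.071, *Grm8* between -0.16 and 0.44, *Cacna1e* between -0.18 and 0.099, *Slc17a6* between -0.80 and 0.34, *Ntf3* between -0.056 and 0.25, *Mbp* between -0.046 and 0.16 and *Tcf7l2* between -1.79 and 0.23, with *Slc17a6* and *Tcf7l2* highest without N10. With N10 alone the differences were -0.21 for *Grm8*, 0.29 for *Cacna1e*, -0.0082 for *Nlgn2* and -0.50 for *Fos*. Without N10 *Fos* was called higher in CB, at 1.88. The causes were not tested. *Htr1b* and *Htr2c* were no longer called with DESeq2, *Sorcs3* by library totals (-0.56) or without N10 (-0.58), and *Opalin* with N10 alone (-0.44). Without W483 *Nr2f2* (-0.78), *Slc17a6* (-0.80) and *Tcf7l2* (-1.73) were called higher in HC, *Tcf7l2* also without W481 and with no filter, and with N10 alone these 3, *Nr2f1* and *Gabrg1* were. The age change lost its call for *Rn7sk* without W483 (-4.36) and for *Mbp* without N5 (-0.86) and without W481 (-0.93).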
